A study of Arabidopsis thaliana with 12 samples.

Results

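The beta-tubulin genes TUB1 (AT1G75780), TUB5 (AT1G20010), TUB6 (AT5G12250) and TUB7 (AT2G29550), the histone H2B gene HTB2 (AT5G22880) and the aurora kinase gene AUR1 (AT4G32830) were followed in Arabidopsis thaliana leaves before and after submergence. They were chosen by name, with earlier results of these data known. Each is read by 1 probe set that the annotation pairs with that gene alone. These 6 genes are among 13356 genes that were tested. Leaf RNA was measured on 12 one-colour Affymetrix arrays, 1 per biological sample, in 4 groups of 3 biological replicates. The wild type was the Col accession, labelled col, and the mutant was atg5, which lacks a protein needed to build autophagosomes. The allele is not given in the sources used here. The controls of both genotypes were collected at 0 h, and the submerged plants of both after 48 h below 10 cm of water. No unsubmerged group at 48 h is among the 12 samples, so submergence and 48 h of further time cannot be told apart. All plants were grown for 28 days with 12 h of light and 12 h of darkness. Nothing says whether leaves of several plants were pooled or whether the replicates were grown apart. The p-values therefore set each difference only against the spread among these samples, with 1 estimate per gene shared by the 4 groups.

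Microtubules are hollow polymers of alpha- and beta-tubulin. In leaf cells they lie beneath the plasma membrane and guide the laying down of cellulose, and in dividing cells they form the preprophase band, the spindle and the phragmoplast. Histone H2B is a core protein of the nucleosome and much of it is made while DNA is replicated. Aurora kinases act at the chromosomes and the spindle in mitosis.

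Signals are log2 values as deposited, so a difference of 1 is a 2-fold change. The lowest value in the table is 2.20 and is shared by all arrays, so a signal near it gives only an upper limit. Arrays of the same group correlated with Pearson's r of 0.985 to 0.996, and a control and a 48 h array with r of 0.784 to 0.865. Array medians were 4.42 to 4.56 in the controls and 4.19 to 4.39 at 48 h. Of 8 listed leaf genes 4 were measured (LHCB4.1, LHCB4.2, RCA and SBPASE). Their summed linear signal was 59120 to 62193 in col control and 59451 to 62004 in atg5 control. It was 12951 to 25778 in col at 48 h and 25372 to 27315 in atg5 at 48 h. The root gene PYK10 stayed at or below 2.35, the meristem gene CLV3 at or below 2.31 and the pollen actin gene ACT12 at or below 2.24 on every array. Each was the only gene measured of its list, of 4 root, 4 meristem and 2 pollen genes. Spike and hybridization controls also moved: 27 poly-A spike probe sets averaged 5.13 to 5.31 in the control arrays and 5.44 to 6.08 at 48 h, and 9 hybridization probe sets 8.79 to 9.02 and 8.47 to 8.95. The GAPDH control read 2.60 to 2.80 higher at its 3' end than at its 5' end in the controls and 2.62 to 3.0 higher at 48 h. The part of these values and of the leaf genes in the differences below was not tested. In whole leaves, fewer cells of a type and less RNA per cell cannot be told apart.

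All 4 tubulin genes and HTB2 fell with submergence in both genotypes. In col, 5 of the 6 genes fell and in atg5 the same 5 fell, tested with limma and adjusted p-values (Benjamini-Hochberg over all genes) under 0.05. Of all genes tested, 42.5% were called in col and 22.1% were lower there, and 40.3% were called in atg5 and 21.2% were lower. The median difference of the 6 genes was -3.82 in col and -3.27 in atg5, beside a median of 0 over all genes in each. Of the called genes 48% were higher in col and 47.4% in atg5. With each array centred on its median these shares were 70.9% and 75.7%, the median of all genes moved by 0.19 and 0.26, and the same 5 genes fell.

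TUB5 encodes a beta-tubulin and had a bright probe set in the controls. Its signal was 10.99, 10.87 and 10.79 in col control and 10.97, 10.82 and 10.72 in atg5 control. After 48 h it was 6.28, 5.10 and 8.10 in col and 4.45, 4.52 and 4.30 in atg5. The controls of the genotypes overlapped, whereas every col array at 48 h lay above every atg5 array at 48 h, with col replicate 3 the highest. TUB5 fell by 4.39 in col (SE 0.60, 3 arrays against 3, adjusted p = 0.000287, limma), a 20.9-fold drop. In atg5 it fell by 6.41 (SE 0.60, adjusted p = 2.91e-05, limma), an 85.3-fold drop and rank 28 among the falls of all 13356 genes. Without single arrays the col difference ran from -5.19 to -3.69 and stayed past the threshold.

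TUB7 encodes another beta-tubulin. Its signal was 8.23, 7.93 and 8.10 in col control and 7.27, 7.48 and 7.21 in atg5 control. At 48 h it was 3.37, 3.12 and 4.04 in col and 3.37, 2.50 and 2.86 in atg5. All control arrays stood far above all 48 h arrays, and among the controls each col array was above each atg5 array. TUB7 fell by 4.58 in col (SE 0.27, adjusted p = 1.6e-06, limma) and fell by 4.41 in atg5 (SE 0.27, adjusted p = 2.19e-06, limma). These are drops of 23.9-fold and 21.2-fold, and ranks 132 and 133 among all falls. In atg5 at 48 h the signal reached down to 2.50, near the lowest value of 2.20, which may limit the size of that fall.

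TUB1, likewise a beta-tubulin gene, was dimmer. Its signal was 6.49, 6.02 and 6.86 in col control and 4.41, 5.01 and 5.46 in atg5 control. After submergence it was 2.39, 2.20 and 2.39 in col and 2.50, 2.45 and 2.20 in atg5. The control groups did not overlap, with col above atg5, while the submerged groups overlapped and 1 array of each lay at the lowest value. TUB1 fell by 4.13 in col (SE 0.28, adjusted p = 3.37e-06, limma) and fell by 2.57 in atg5 (SE 0.28, adjusted p = 6.97e-05, limma). Since both submerged groups were next to the lowest value, the size of either fall is limited by that value.

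TUB6, also a beta-tubulin gene, kept a clear signal under water. It read 10.82, 10.54 and 10.69 in col control and 10.41, 10.41 and 10.64 in atg5 control. At 48 h it read 7.24, 6.40 and 7.86 in col and 6.76, 7.82 and 6.90 in atg5. The genotypes overlapped both in the controls and at 48 h, and no control array met a 48 h array. TUB6 fell by 3.51 in col (SE 0.38, adjusted p = 5.98e-05, limma) and fell by 3.33 in atg5 (SE 0.38, adjusted p = 9.41e-05, limma), drops of 11.4-fold and 10.0-fold.

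HTB2 encodes histone H2B. Its signal was 8.55, 8.52 and 8.89 in col control and 7.41, 7.78 and 7.66 in atg5 control. At 48 h it was 5.37, 5.56 and 5.26 in col and 4.41, 4.72 and 4.10 in atg5. No pair of groups overlapped: col control was highest, then atg5 control, col at 48 h and atg5 at 48 h. HTB2 fell by 3.26 in col (SE 0.18, adjusted p = 9.67e-07, limma) and fell by 3.21 in atg5 (SE 0.18, adjusted p = 1.25e-06, limma), drops of 9.57-fold and 9.26-fold.

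AUR1 encodes a kinase of the mitotic spindle and read 4.58 or below on every array. Its signal was 4.58, 3.80 and 2.65 in col control and 3.75, 2.68 and 3.77 in atg5 control. At 48 h it was 2.56, 2.21 and 2.51 in col and 2.23, 2.44 and 2.44 in atg5. Within each genotype the controls lay above the 48 h arrays without overlap, but col control replicate 3 and atg5 control replicate 2 were close to them. The difference was -1.25 in col (SE 0.47, adjusted p = 0.0602, limma) and -1.03 in atg5 (SE 0.47, adjusted p = 0.126, limma), and neither passed. Without col control replicate 3 the col difference was -1.76 (adjusted p = 0.00512, limma) and the atg5 adjusted p was 0.0376. Without atg5 control replicate 2 the col adjusted p was 0.0466. With dim genes left out, those whose mean signal was under the 40th percentile, the adjusted p was 0.0148 in col and 0.0391 in atg5. That fit held fewer genes and took its variance prior from these genes alone. Why the p-values moved was not tested.

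**Figure D1:**
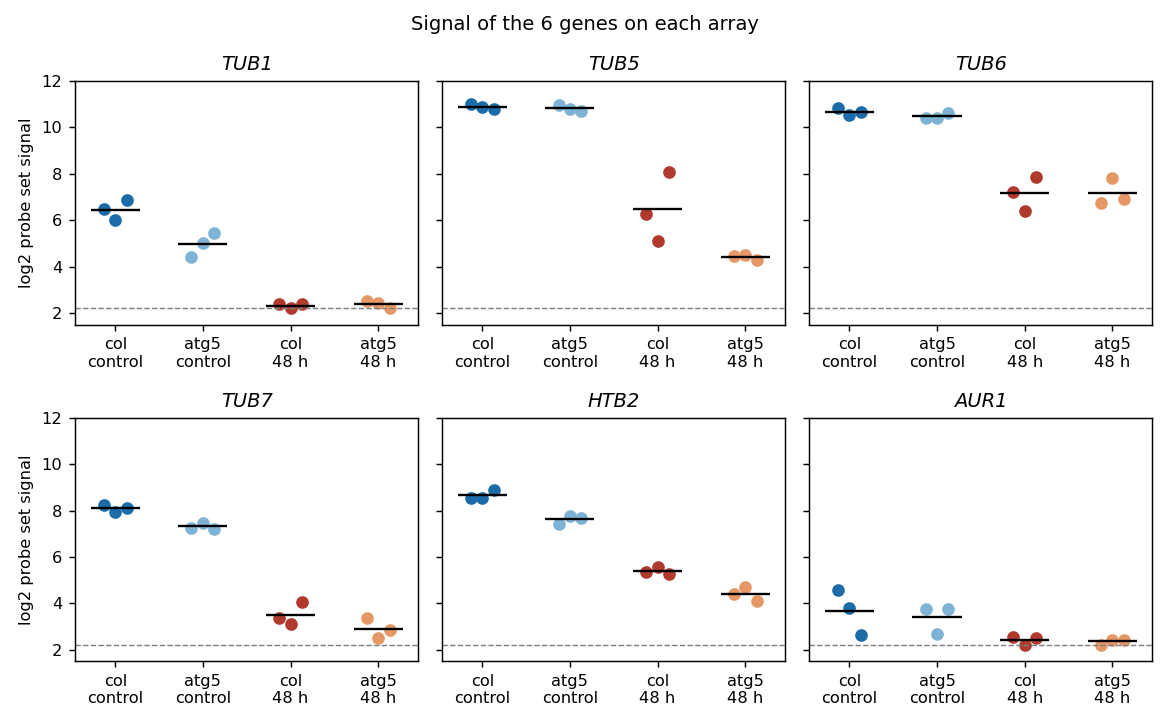
Log2 probe set signal (vertical axis) of the 6 genes on each of the 12 arrays, by group (horizontal axis). Points are arrays, in the order of replicates 1 to 3, bars are group means, and the dashed line is the lowest value of the table, 2.20. TUB1 and AUR1 lie next to that line at 48 h, while TUB6 stays at 6.40 or above and the col 48 h arrays of TUB5 spread from 5.10 to 8.10.

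The arrays of col at 48 h differed among themselves for part of these genes. The SD over the 3 arrays was 1.51 for TUB5, 0.73 for TUB6 and 0.48 for TUB7, each with replicate 3 highest and replicate 2 lowest. It was 0.11 for TUB1, which had the same order near the lowest value (2.386, 2.204 and 2.390). For HTB2 it was 0.15, and replicate 2 was the highest. In atg5 at 48 h the SD of TUB5 was 0.11 and that of TUB6 was 0.58, with replicate 2 highest. The leaf genes RCA (13.37, 12.89 and 13.82) and SBPASE (9.61, 8.90 and 10.30) had the same order of col 48 h replicates as TUB5, TUB6 and TUB7. Of the 2950 genes that fell in col, 31.8% had this order and 8.0% the opposite one. Of the 2728 genes that rose in col, 7.92% had this order and 37.9% the opposite one. Whether the leaf gene order plays a part in the tubulin values was not tested.

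**Figure D2:**
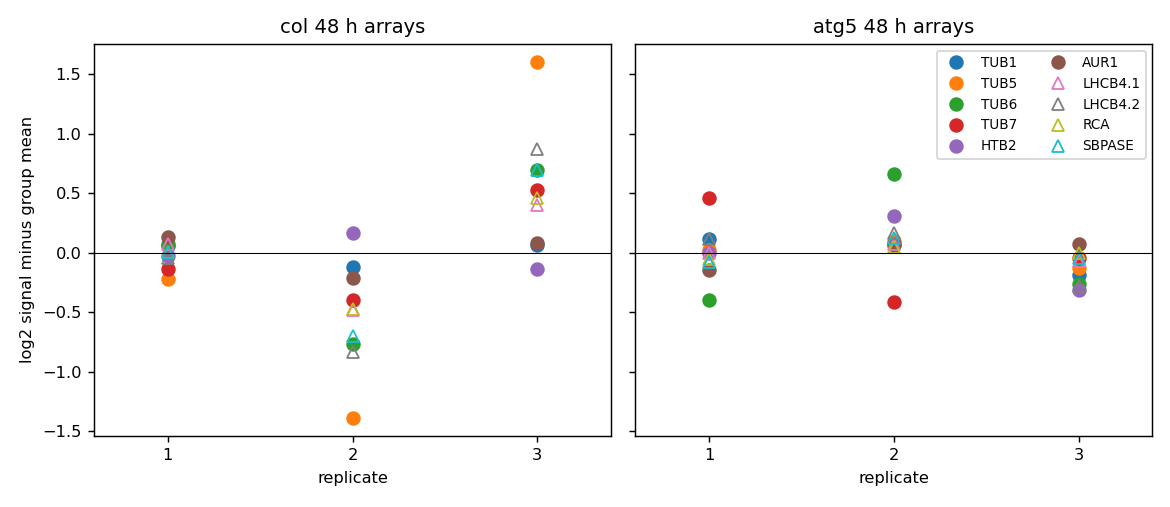
Log2 signal of each array at 48 h minus its group mean (vertical axis) by replicate (horizontal axis), for col on the left and atg5 on the right. Filled circles are the 6 genes and open triangles are 4 leaf genes. In col, TUB5, TUB6, TUB7 and all 4 leaf genes are highest on replicate 3 and lowest on replicate 2, while HTB2 is highest on replicate 2. TUB1 has the former order too, with replicates 1 and 3 nearly equal and close to the lowest value.

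The unsubmerged mutant was compared with the unsubmerged wild type to ask how the genes stood before flooding. TUB1 and HTB2 were lower in atg5 control than in col control, and the other 4 genes did not pass the test. The calls were 2 of 6 genes, where 2.34% of all genes were called and 0.973% were called lower. This comparison uses the same control arrays as the submergence comparisons. The mean of TUB1 was 6.46 in col control (SD 0.42, n = 3) and 4.96 in atg5 control (SD 0.53, n = 3). TUB1 differed by -1.50 (SE 0.28, adjusted p = 0.0352, limma), a 2.82-fold lower signal in atg5 and the 28th most negative difference of all genes. That SE also draws on the 48 h arrays. There the SD of TUB1 was 0.11 in col and 0.16 in atg5, with signals next to the lowest value. HTB2 had a mean of 8.66 in col control (SD 0.21, n = 3) and of 7.62 in atg5 control (SD 0.19, n = 3). Its difference was -1.03 (SE 0.18, adjusted p = 0.0252, limma), a 2.05-fold lower signal.

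Both control calls were close to the threshold. That of TUB1 was lost without any single array other than col control replicate 2 or atg5 control replicate 3, with adjusted p-values of 0.0501 to 0.0832 and differences of -1.52 to -1.22. That of HTB2 was lost without col control replicate 3 (adjusted p = 0.0523), atg5 control replicate 1 (0.0889), atg5 control replicate 3 (0.0696) or atg5 48 h replicate 1 (0.0518), with differences of -1.06 to -0.92. With only the 6 control arrays in the fit the adjusted p was 0.200 for TUB1 and 0.111 for HTB2. TUB7 differed by -0.77 (SE 0.27, adjusted p = 0.232, limma) with no overlap of the groups. The other differences were -0.20 for TUB6, -0.05 for TUB5 and -0.28 for AUR1, each with an adjusted p of 1 and overlapping groups. The 95% interval reached from -1.06 to 0.67 for TUB6, from -1.42 to 1.33 for TUB5 and from -1.34 to 0.78 for AUR1. These intervals use the spread over all 4 groups. For TUB5 the SD was 0.10 in col control and 0.12 in atg5 control, beside 1.51 in col at 48 h.

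At 48 h HTB2 was again lower in atg5 than in col. It was the only call among the 6 genes, beside 3.42% of all genes called and 1.58% called lower. Its mean was 5.40 in col (SD 0.15, n = 3) and 4.41 in atg5 (SD 0.31, n = 3), a difference of -0.99 (SE 0.18, adjusted p = 0.0238, limma). The call was lost without col 48 h replicate 1 (adjusted p = 0.0634), col 48 h replicate 2 (0.0641), atg5 48 h replicate 1 (0.0731) or atg5 48 h replicate 3 (0.0685), and with only the 6 submerged arrays in the fit (0.171). TUB5 had the most negative difference of all 13356 genes, -2.07 (SE 0.60), and did not pass (adjusted p = 0.117, limma), with its col arrays spread over 5.10 to 8.10. Without col 48 h replicate 2 it was -2.77 and passed (adjusted p = 0.0239, limma), and without col 48 h replicate 3 it was -1.27. With dim genes left out its adjusted p was 0.0307. The differences of TUB7 (-0.60, adjusted p = 0.34), TUB1 (0.06), TUB6 (-0.01) and AUR1 (-0.05) did not pass, and those groups overlapped. The 95% interval was -0.58 to 0.70 for TUB1 and -0.87 to 0.85 for TUB6.

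**Figure D3:**
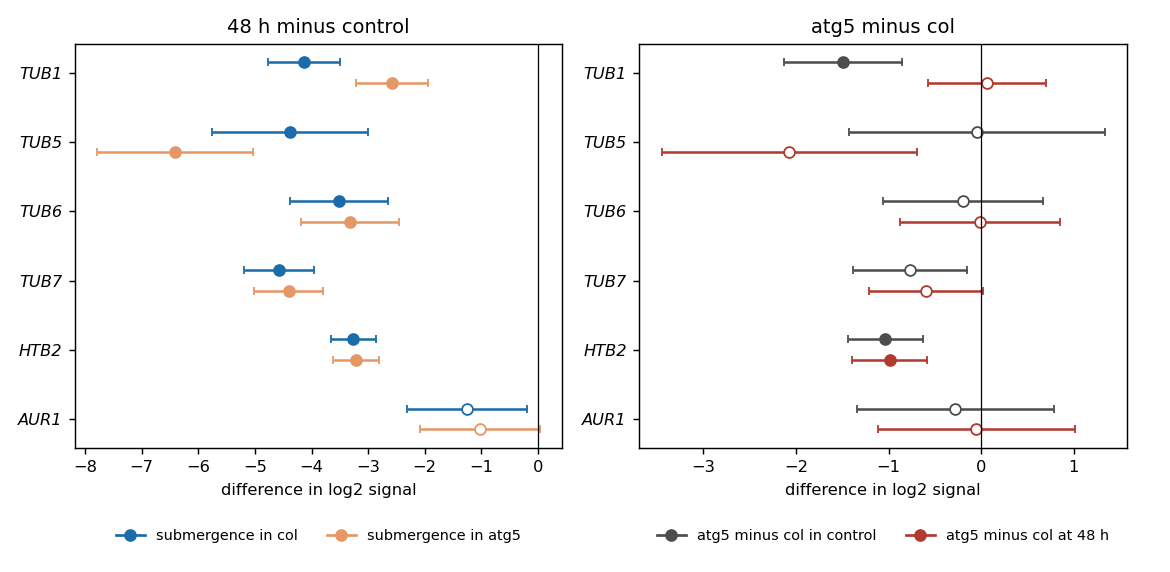
Differences in log2 signal (horizontal axes) of the 6 genes with 95% intervals, for 48 h minus control on the left and atg5 minus col on the right. Filled circles passed an adjusted p of 0.05 over all genes and open circles did not. The 4 tubulin genes and HTB2 lie below 0 in both genotypes on the left, and TUB1 in the controls and HTB2 at both times are the filled circles on the right.

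The interaction asks whether submergence changed a gene by another amount in atg5 than in col. None of the 6 genes passed, where 80 of 13356 genes (0.599%) did and 1532 had an unadjusted p under 0.05 in limma. For TUB1 the atg5 response minus the col response was 1.56 (SE 0.39, 95% interval 0.66 to 2.46, adjusted p = 0.134, limma). Its submerged groups ended near the lowest value from unequal control levels. TUB5 had a value of -2.03 (SE 0.85, 95% interval -3.98 to -0.08, adjusted p = 0.408, limma), and it ran from -2.72 to -1.22 when single arrays were left out. For HTB2 the value was 0.05 with a 95% interval of -0.52 to 0.62, the narrowest of the 6. TUB6, TUB7 and AUR1 had values of 0.19, 0.17 and 0.22.

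Ordered by mean signal, col control was the highest group for all 6 genes and atg5 control the next. At 48 h col was above atg5 for TUB5, TUB6, TUB7, HTB2 and AUR1, and below it for TUB1. Of these genotype differences, TUB1 and HTB2 passed in the controls and HTB2 alone at 48 h, where TUB6 differed by -0.01. How often all genes have this order was not counted. Neighbouring groups in that order overlapped for TUB6 and AUR1 in the controls and at 48 h, for TUB5 in the controls, and for TUB1 and TUB7 at 48 h.

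Other tubulin genes moved in both directions. Of 9 beta-tubulin genes 5 were measured and all 5 fell in both genotypes, where 22.1% of all genes were lower in col and 21.2% in atg5. Of these 5, 4 are the tubulin genes already counted among the 6. The fifth, TUB9 (AT4G20890), fell by 1.36 in col (adjusted p = 9.15e-06, limma) and fell by 1.37 in atg5 (adjusted p = 9.48e-06, limma), less than the other 4 by point estimate. Of 6 alpha-tubulin genes 2 were measured. TUA6 (AT4G14960) fell by 2.34 in col and fell by 2.01 in atg5. TUA1 (AT1G64740), known mainly from pollen, rose by 2.06 in col (SE 0.37, adjusted p = 0.0015, limma) and by 2.10 in atg5 (adjusted p = 0.00139, limma). Its signal was 7.13, 5.52 and 6.82 in col control and 8.54, 8.86 and 8.24 in col at 48 h, and no control array reached a 48 h array. Whether the probes of one tubulin also bind the transcripts of another was not tested.

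Genes that act on tubulin were measured in small numbers. GCP2, a part of the complex that starts microtubules, fell by 1.12 in col (adjusted p = 0.00133, limma). In atg5 it differed by -0.53 (adjusted p = 0.0628), which passed without col control replicate 3 or atg5 control replicate 1 (adjusted p = 0.0294 at the lowest). The microtubule-binding SPR1 fell by 0.24 in col (adjusted p = 0.03) and fell by 0.55 in atg5 (adjusted p = 0.000312). The col call was lost without col control replicate 1 or 3 or col 48 h replicate 2 or 3 (highest adjusted p 0.0973), and with each array centred on its median, where the difference was -0.05. The tubulin folding cofactors TFCC (-0.61 in col and -0.58 in atg5) and TFCE (0.18 and 0.34) did not pass. In atg5 TFCE passed without col 48 h replicate 2 (adjusted p = 0.0207, limma). It also passed with centred arrays (adjusted p = 0.0394, limma), which moved the median of all genes there by 0.26. TFCC passed in col without col control replicate 1 or atg5 control replicate 1, and in atg5 without atg5 control replicate 1. The actin gene ACT11, of the other main cytoskeletal polymer, fell by 2.86 in col (adjusted p = 0.00853) and differed by -1.19 in atg5 (adjusted p = 0.248). All 3 arrays of both 48 h groups lay within 0.05 of the lowest value, with means of 2.22, so the sizes of these ACT11 differences are limited by that value and by the control means of 5.08 in col and 3.41 in atg5.

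HTB2 had the largest fall by point estimate of the 9 measured H2B genes, of 11 listed. Of the 9, 6 fell in col, 4 fell in atg5 and none rose, and leaving out single arrays gave 4 to 6 in col and 4 in atg5. None of the 9 passed for the interaction, though HTB1 did without col 48 h replicate 2 (adjusted p = 0.0324, limma). Of all genes 22.1% were lower in col and 21.2% in atg5, and HTB2 is among the 9. HTB1 fell by 2.07 in col and fell by 1.18 in atg5, and HTB5 by 1.78 and fell by 0.97. HTB4 fell by 0.43 in col and fell by 0.55 in atg5, HTB3 by 0.48 and HTB11 by 0.56 in col. In atg5 HTB3 differed by -0.05 and HTB11 by 0.01, which was -0.08 under quantile normalization. With arrays centred on their medians HTB11 differed by 0.27 and passed (adjusted p = 0.0401, limma). That centring moved the median of all genes in atg5 by 0.26. HTB8, at the lowest value on every array, also passed there (adjusted p = 0.0122, limma). The col calls of HTB3 and HTB4 were lost without some single arrays: for HTB3 without col control replicate 3 or col 48 h replicate 1 or 2 (highest adjusted p 0.071), for HTB4 without col control replicate 2 or 3 or col 48 h replicate 1 or 3 (highest 0.0781). Centring on the median ended both calls of HTB4, with -0.24 in col and -0.29 in atg5, and turned HTB3 in atg5 to 0.21. HTB7, HTB8 and HTB10 had group means of 2.20 to 2.42 and did not pass with the values as deposited. At 48 h HTB3 was higher in atg5 by 0.84 (SE 0.14, adjusted p = 0.0178, limma), the opposite of HTB2, and lost the call without col 48 h replicate 1 or atg5 48 h replicate 1 or 3 (highest adjusted p 0.0647).

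Linker histones bind the DNA between nucleosomes, and all 3 of their genes were measured. H1.1 rose by 0.53 in col (adjusted p = 0.000149, limma) and by 0.50 in atg5 (adjusted p = 0.000225, limma). H1.2 rose by 0.29 in col (adjusted p = 0.025), a call lost under quantile normalization (0.0541) and without col control replicate 1 or 3 or col 48 h replicate 1 or 3, and it differed by 0.11 in atg5, where it passed with centred arrays (0.00648). The stress-induced H1.3 differed by 1.37 in col (adjusted p = 0.0991) and by 0.95 in atg5 (adjusted p = 0.285). H1.3 passed in col under quantile normalization (0.0432) and in both genotypes with each array centred on its median (0.0238 in col and 0.0453 in atg5). That centring by itself moved the median of all genes by 0.19 in col and 0.26 in atg5. Of 12 listed H3 genes only 3 were measured: HTR6, HTR10 and HTR12, the last of which encodes the centromeric form. None of them passed with the values as deposited, and their group means were between 2.20 and 2.58. No gene of the 13 listed for H2A or the 8 listed for H4 was analysed.

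Cell division genes other than AUR1 were analysed in few cases. AUR2, the closest relative of AUR1, fell by 0.83 in col (adjusted p = 0.000267, limma) and fell by 0.92 in atg5 (adjusted p = 0.000157, limma). Its mean was 3.08 in col control and 3.14 in atg5 control, and 2.24 and 2.22 at 48 h, next to the lowest value. AUR3 and the checkpoint gene BUBR1 were within 0.05 of the lowest value on all arrays. None of 23 listed mitotic cyclin and CDK genes was analysed here, since none had a probe set that passed the filter for 1 gene. That filter took a semicolon in a gene symbol to mean several genes. Whether the array holds probe sets for these genes alone was therefore not checked. The CDK inhibitor gene SIM, which acts in the switch to DNA replication without division, differed by 0.60 in col and by -0.68 in atg5 and did not pass.

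MCM7, a part of the helicase that opens DNA for replication, fell by 3.24 in col (SE 0.15, adjusted p = 4.68e-07, limma) and fell by 2.46 in atg5 (SE 0.15, adjusted p = 2.31e-06, limma). Like TUB1 and HTB2, MCM7 was lower in atg5 control than in col control, by -1.05 (adjusted p = 0.0146, limma), a call lost without atg5 control replicate 1 (0.0564). POLA1, the catalytic part of DNA polymerase alpha, fell by 1.99 in col (adjusted p = 0.000843). In atg5 it differed by -0.84 (adjusted p = 0.0726) and passed without col control replicate 1 or 2 or atg5 control replicate 1 (0.0307 at the lowest). The 48 h means were 2.32 in col and 2.39 in atg5 for POLA1, and 2.63 and 2.36 for MCM7, all next to the lowest value, which limits these differences. The control means were 4.30 and 3.23 for POLA1, and 5.87 and 4.82 for MCM7. Over all lists other than the cell type markers, 35 of 179 loci were measured. In col 3 rose, 18 fell and 14 did not pass, where 42.5% of all genes were called and 22.1% were lower. In atg5 2 rose, 13 fell and 20 did not pass, where 40.3% of all genes were called and 21.2% were lower. The 6 genes are among the 35, and 5 of the 35 were within 0.05 of the lowest value on all arrays.

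**Figure D4:**
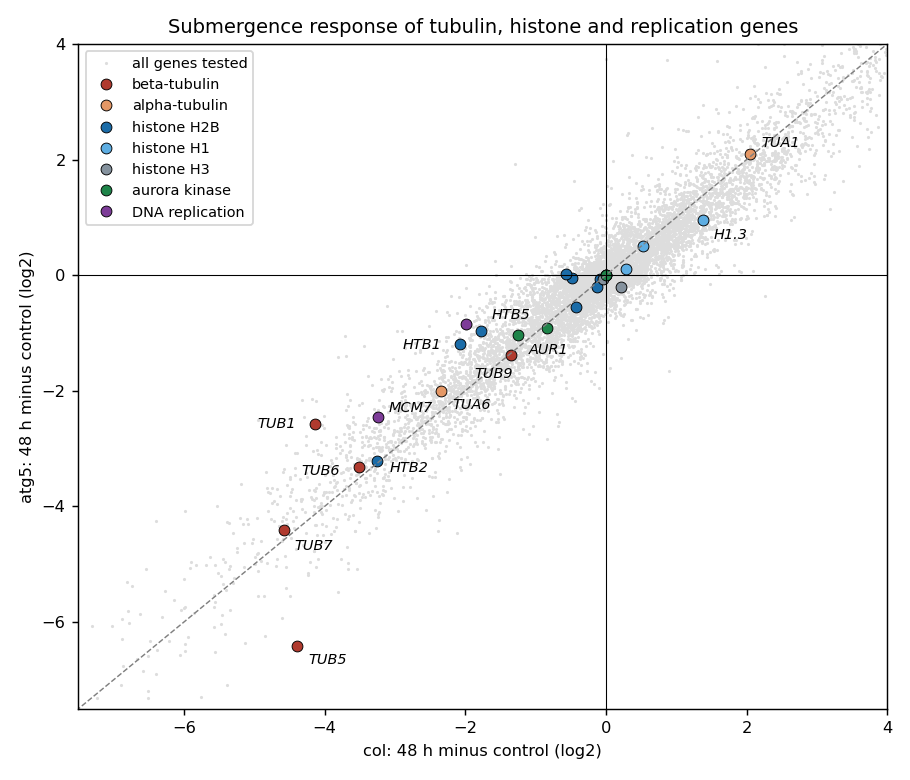
Submergence response in atg5 (vertical axis) against that in col (horizontal axis), both as 48 h minus control in log2 signal. Coloured points are measured genes of the tubulin, histone, aurora kinase and DNA replication lists, grey points are all genes tested that lie within the axes, and the dashed line marks equal responses. TUB1, TUB5, TUB6, TUB7 and HTB2 lie at -2.57 or below in both genotypes, while TUA1 lies above 2 in both.

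Genes whose signal followed the 6 genes most closely over the 12 arrays were found by Pearson's r among 7291 genes with a clear signal on some array. These values describe arrays that share the contrast between control and 48 h, so many genes reach a high r. The genes were picked on these same arrays, so differences like those of the 6 genes follow from the choice. The closest gene was AT1G80280 for TUB1 (r = 0.998), AT3G60320 for TUB5 (r = 0.993) and AT2G35880 for TUB6 (r = 0.997). It was AT2G35410 for TUB7 (r = 0.995) and AT1G48830 for HTB2 (r = 0.995). AT1G80280 differed by -1.21 between the control groups, beside -1.50 for TUB1, and by -3.08 and -1.93 with submergence in col and atg5. AT3G60320 had submergence differences of -2.55 in col and -4.06 in atg5, beside -4.39 and -6.41 for TUB5. AUR1 had no neighbour above r = 0.885, which was AT1G79520.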

How the data were processed

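Leaf RNA of 12 samples was measured on 1 array each. The deposited values are log2 signals per probe set, made by the authors. MAS5 and GCRMA appear in the submitters' processing notes without a version or a stated role. The values, 2.20 to 15.09, themselves show the log2 scale. The table holds 22810 probe sets. After leaving out 64 control probe sets, 503 taken to have several genes and 8730 with none named, 13513 had 1 gene. A semicolon in the symbol or identifier was taken to mean several genes, also where it could be part of 1 symbol. For the 146 genes with more than 1 probe set the brightest was used, giving 13356 genes, of which 2666 lie within 0.05 of the lowest value on all arrays. Gene loci came from the RefSeq gene table (13286 matched).

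Values were tested as deposited in R 4.3.3 by lmFit and eBayes of limma 3.58.1, with 1 mean per group over 12 arrays (8 residual and 0.488 prior degrees of freedom). Each gene had 1 spread estimate, shared by the 4 groups. In each of 5 comparisons the two-sided p-values were adjusted by Benjamini-Hochberg for all genes, and the threshold was 0.05. The script was tested on simulated data. Precision is limited by the number of arrays. The values carry neither detection calls nor any batch information.

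The 6 genes, the 21 gene lists (196 loci, 41 measured, markers included) and the tests were chosen with earlier results of these data known. Genes named are the 6, every measured tubulin, histone and aurora kinase gene, up to 4 changed genes per list, and the 3 nearest genes of each of the 6, of which only some are printed. Members of lists that did not pass are also given. Same-numbered replicates did not deviate together in every pair, so the numbers were not taken as pairs. The alternatives were quantile normalization, centring on the median, a filter on dim genes, a raised lowest value, other choices of probe sets, the replicate block, other variance priors, fewer groups, a fold of at least 2, and leaving out each array. For the list genes, scaling and leaving out arrays were added after seeing the data. The probe set of ATG5 could not be named, so the mutated gene was not analysed here.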

Additional observations from a re-analysis of the deposited data

How the results depend on the processing

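Over 23 alternative settings, none of the 264 submergence differences computed for the 6 genes changed sign, and no submergence call of the 4 tubulin genes or HTB2 was lost. With each array centred on its median, the called genes were 9195 for submergence in col, 10318 in atg5 and 151 for the interaction, and TUB6 at 48 h turned to 0.0021. The share of higher calls then moved from 58.5% to 44.3% between genotypes in control and from 56.2% to 66.9% for the interaction. Genes at the lowest value on all arrays, such as AUR3, passed as higher under this setting, by 0.19 in col and 0.26 in atg5, which is the shift of the medians itself. With dim genes left out, 695 genes and 2 of the 6 were called between genotypes at 48 h, and 156 for the interaction. With all probe sets the counts were 10914, 10414, 689, 948 and 157 in the order col, atg5, control, 48 h and interaction. With the replicate block, 159 genes and 0 of the 6 were called between genotypes in control, 229 and 0 at 48 h, and 34 for the interaction. The correlation of deviations of same-numbered arrays was 0.0057 to 0.0371 in col, -0.0601 to 0.0177 in atg5, 0.0456 to 0.104 between the controls and -0.476 to -0.0694 at 48 h. Between the controls 6 of 6 arrays correlated best with their own number, and at 48 h 0 of 6. With only the groups compared, 13 genes and 0 of the 6 were called in control and 13 and 0 at 48 h. With a fold of at least 2 the counts were 108 in control, 132 at 48 h with 0 of the 6, and 44 for the interaction. The cause of these moves was not tested, except that fewer arrays or features were fitted where the setting says so.

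Leaving out single arrays gave 124 to 344 genes called in control, 179 to 751 at 48 h and 51 to 186 for the interaction, and 0 to 2 and 0 to 1 of the 6 genes between genotypes. In control TUB5 ran from -0.11 to 0.011 and AUR1 from -0.79 to 0.17. At 48 h TUB1 ran from -0.0012 to 0.15, TUB6 from -0.39 to 0.34 and AUR1 from -0.16 to 0.018. In the interaction TUB6 ran from -0.20 to 0.53, TUB7 from -0.058 to 0.44, HTB2 from -0.11 to 0.20 and AUR1 from -0.23 to 0.74. Signals near the lowest value, as for AUR1 and TUB1 at 48 h, limit the differences that can be seen.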

Other observations

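A search of gene names in the annotation, made after the values of other genes had been seen, found 6 further genes of microtubules, the cell cycle or histones. ATMAP65-6, which encodes a microtubule-associated protein, fell by 2.87 in col (SE 0.48, adjusted p = 0.00104, limma) and by 3.46 in atg5 (adjusted p = 3.51e-04, limma). HON4, which encodes a protein with a linker histone domain, rose by 0.79 in col (adjusted p = 0.00232) and by 0.81 in atg5 (adjusted p = 0.00197). HBT, a part of the anaphase-promoting complex, fell by 0.56 in col (adjusted p = 0.0353), a call lost without col control replicate 1 or 2, atg5 control replicate 1 or col 48 h replicate 1 or 2 (highest adjusted p 0.119), and differed by 0.03 in atg5. KINESIN-13A, which encodes a microtubule motor protein, differed by 0.06 in col and rose by 0.39 in atg5 (adjusted p = 0.0283), a call lost without atg5 control replicate 2 or atg5 48 h replicate 2 or 3 (highest 0.102). KINESIN-12B and CDC27a did not pass in either genotype, though KINESIN-12B passed in col without col control replicate 1 (adjusted p = 0.0482).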
